A study of Mus musculus with 8 samples.

Results

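The genes described here are 8 that make, modify or regulate the polyamines, among 46625 gene names in the count table: the antizyme genes Oaz1 and Oaz2, the antizyme inhibitor gene Azin1, the synthesis genes Odc1, Amd1, Srm and Sms, and the acetyltransferase gene Sat1. The table lists them in capitals (OAZ1, OAZ2, AZIN1, ODC1, AMD1, SRM, SMS and SAT1). They were taken by symbol, all 8 were found, and all 8 were among the 14607 genes that passed a filter on low counts. The group was chosen on the host comparison itself, because Oaz1 had passed a threshold in part of the libraries. Values of the 8 genes in that comparison are therefore a description and not independent evidence.

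RNA was measured in 8 libraries of 8F10 T cells, whose receptor recognises a peptide of insulin. Marrow stem cells of 8F10 donors that lack the T cell receptor alpha chain and carry CD45.2, with T and B cells removed, were transferred into hosts with CD45.1 that had been irradiated at a dose that does not kill. The hosts were NOD mice (4 libraries) or B16A mice (4 libraries), the latter known as a NOD line whose insulin has a changed residue in the B chain. After 6 weeks the 8F10 cells were sorted from inguinal lymph nodes, and the comparison asks how they differ between hosts with native and with changed insulin. The labels give the strain of every library as NOD/ShiLtJ and number 4 batches, every one of which holds a NOD and a B16A library. Sublethal irradiation leaves some host cells alive. The labels do not say whether libraries came from separate animals or from pools, so the errors below measure the spread between these libraries.

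Polyamines are small positively charged molecules that dividing cells need for translation and growth. Ornithine decarboxylase, made from Odc1, forms putrescine. Spermidine synthase (Srm) and spermine synthase (Sms) extend it with groups that the product of Amd1, S-adenosylmethionine decarboxylase, provides. Antizymes bind ornithine decarboxylase, send it to the proteasome and slow polyamine uptake, while the antizyme inhibitor, a relative of the decarboxylase without its activity, captures antizyme. The product of Sat1 acetylates spermidine and spermine, which marks them for export or breakdown. In T cells the pathway is known for its strong induction when resting cells are activated.

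An antizyme is made only if the ribosome slips by a base at a stop codon, which it does more often when polyamines are plentiful. The coding sequence around that point is shown because it is the site that makes these genes antizymes and because it bears on how Oaz1 reads can be counted. The GENCODE vM21 annotation of mm10 leaves out 1 base there, at chromosome 10 position 80828295 in Oaz1 and at chromosome 9 position 65686272 in Oaz2, which is the T of the stop codon. Capitals mark the codon before the stop and the stop itself, or the matching bases of Oaz1-ps. The windows below run 5′ to 3′ over 70 bases, which are coding in Oaz1 and Oaz2. They lie at chr10:80828262-80828331 (plus strand), at chr17:17345900-17345969 (minus strand) for Oaz1-ps, a processed pseudogene of Oaz1, and at chr9:65686239-65686308 (plus strand).
Oaz1: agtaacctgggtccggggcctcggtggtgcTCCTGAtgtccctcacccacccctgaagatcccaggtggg
Oaz1-ps: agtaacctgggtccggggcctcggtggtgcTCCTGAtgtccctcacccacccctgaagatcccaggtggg
Oaz2: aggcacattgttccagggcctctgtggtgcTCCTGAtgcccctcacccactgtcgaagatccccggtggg
The pseudogene matched Oaz1 at 70 of 70 bases, so a read of 50 bases from this stretch cannot be placed on one or the other. Oaz2 matched at 57 of 70, with 0 of the 13 differences inside the 6 capital bases.

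Counts are raw reads per gene, and CPM are those counts relative to the size of the library, scaled with TMM factors. Totals were 4896593 to 6137666 reads in batches 1 to 3 and 28094237 and 28301805 in batch 4, whose libraries also stood apart in composition (29729 to 33175 genes with a read in batches 1 to 3, against 19751 and 20723). Host differences of the members are therefore given by batch, and the fits with and without batch 4. The libraries carried T cell transcripts: 6 of 6 T cell markers were detected in every library, with a summed level of 4655 to 12045 CPM in NOD hosts and 4101 to 8775 CPM in B16A hosts. The 4 B cell markers summed to 1.59 to 8.79 CPM. The 5 myeloid markers summed to 41.5 to 67.5 CPM in NOD and 39.3 to 44.6 CPM in B16A libraries of batches 1 to 3, and to 11.2 and 9.30 CPM in batch 4. Their part in the results was not tested. In bulk RNA, fewer cells of a type and less RNA per cell cannot be told apart.

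Oaz1, the main antizyme, lies on chromosome 10 (80826656 to 80829290, plus strand). The group was chosen on this gene in batches 1 to 3, so its values there are a description. It stood at 41.5, 38.9, 53.4 and 302 CPM in the NOD libraries of batches 1 to 4, from 241, 208, 327 and 6740 reads. In B16A hosts it stood at 35.0, 15.6, 20.4 and 208 CPM, from 230, 100, 126 and 4973 reads. The NOD library was the higher one in every batch, and in batches 1 to 3 the lowest NOD library lay above the highest B16A library, which held for 4.75% of all tested genes. The hosts of the other 7 members overlapped there, and 0 of the 8 lay wholly below (5.44% of all tested genes). Across all 4 batches the hosts overlapped in all 8 genes (0.596% of all tested genes did not overlap), and both batch 4 libraries of Oaz1 were far above the rest. The ratio of NOD to B16A was 1.18 in batch 1 (95% interval 0.985 to 1.43), 2.49 in batch 2 (1.95 to 3.20), 2.62 in batch 3 (2.13 to 3.25) and 1.45 in batch 4 (1.40 to 1.50). These intervals are exact for independent reads and cover counting error only. Reads amplified without molecular tags are not independent molecules, so the intervals here and below may be too narrow. In batch 1 the interval includes a ratio of 1, and the ratios were largest in batches 2 and 3.

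**Figure D1:**
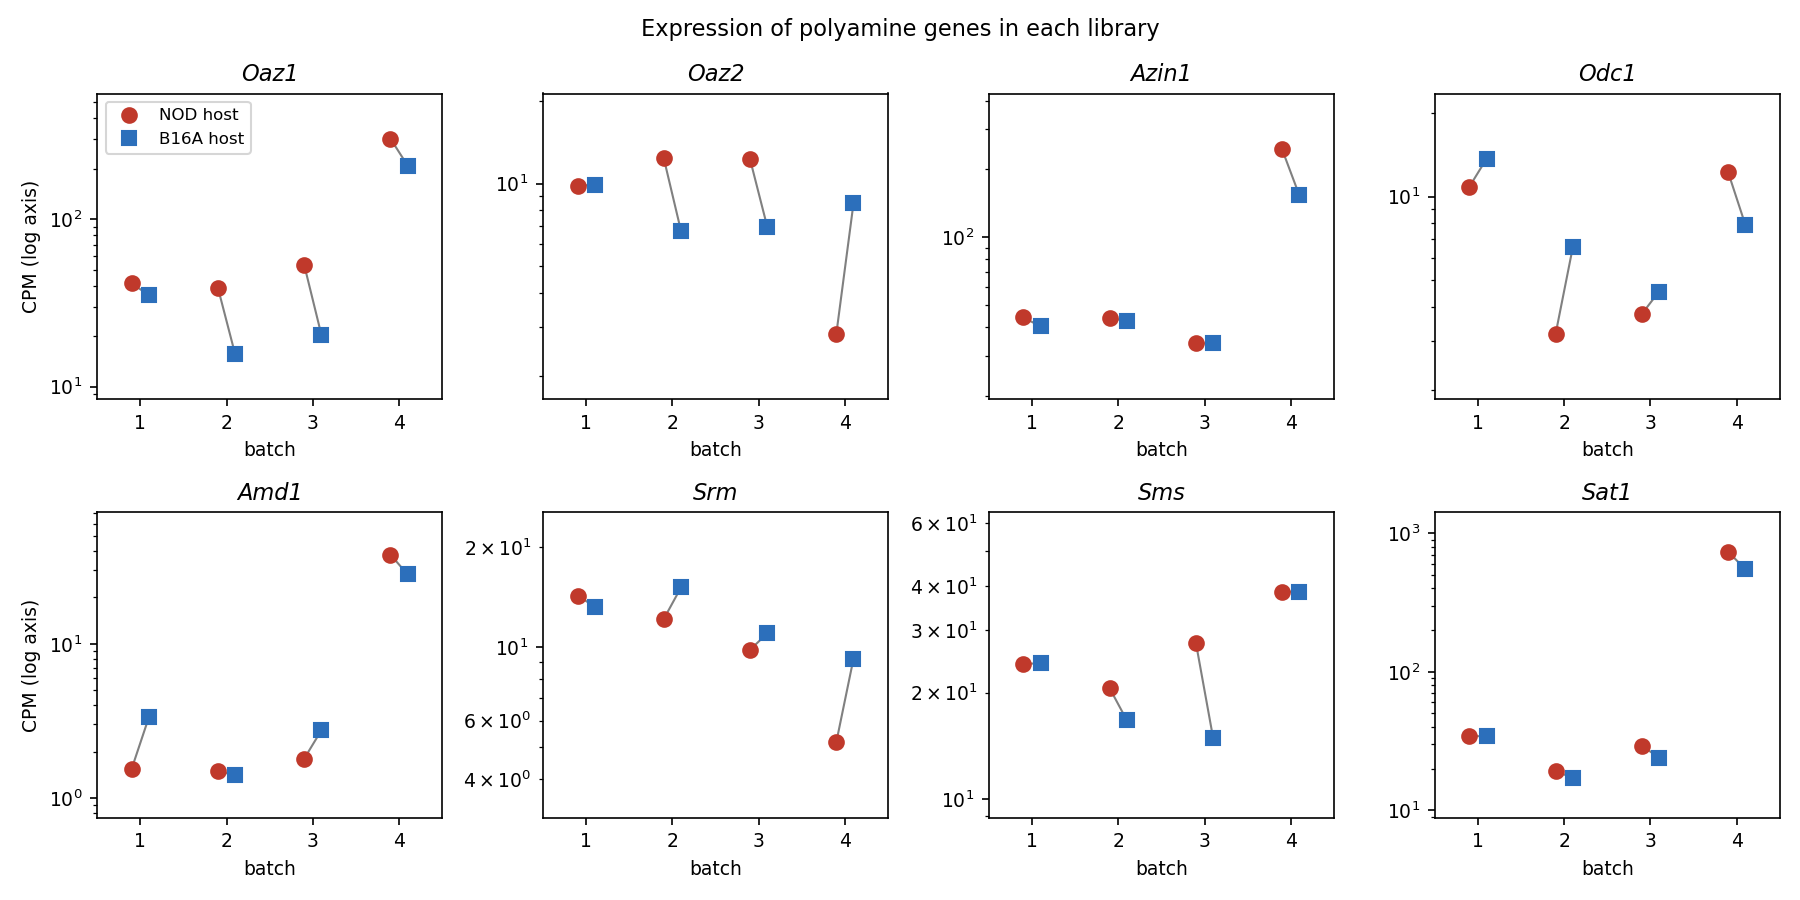
CPM of each of the 8 genes in each library, on a log axis, by batch (red circles NOD host, blue squares B16A host, 1 point per library, grey lines join the libraries of a batch, no error bars). Oaz1 is higher in the NOD library in every batch, and Sat1, Oaz1, Azin1 and Amd1 are far higher in batch 4 than in batches 1 to 3.

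The second antizyme, Oaz2, on chromosome 9 (65668001 to 65690300), was much scarcer, with 43 to 202 reads per library. It stood at 9.81, 12.3, 12.3 and 2.82 CPM in the NOD libraries of batches 1 to 4. The B16A values were 9.90, 6.71, 6.96 and 8.46 CPM. Like Oaz1 it was higher in the NOD library of batches 2 and 3 and near equal in batch 1. In batch 4 it went the other way, with a ratio of 0.334 (95% counting interval 0.247 to 0.445), the opposite of Oaz1 in the same libraries. Oaz1 made up 69.9% to 81.3% of the reads of both antizyme genes in batches 1 to 3 and 99.1% and 96.1% in the NOD and B16A libraries of batch 4.

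Azin1, whose product frees ornithine decarboxylase from antizyme, was close between hosts in batches 1 to 3. It stood at 44.2, 43.9, 34.0 and 244 CPM in the NOD libraries. In the B16A libraries it stood at 40.3, 42.8, 34.0 and 153 CPM. The ratio lay at 1.10, 1.03 and 1.00 in batches 1 to 3, each with a counting interval that includes 1, and at 1.60 (1.53 to 1.66) in batch 4. Azin1 lies on chromosome 15 (38487427 to 38519266, minus strand).

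**Figure D2:**
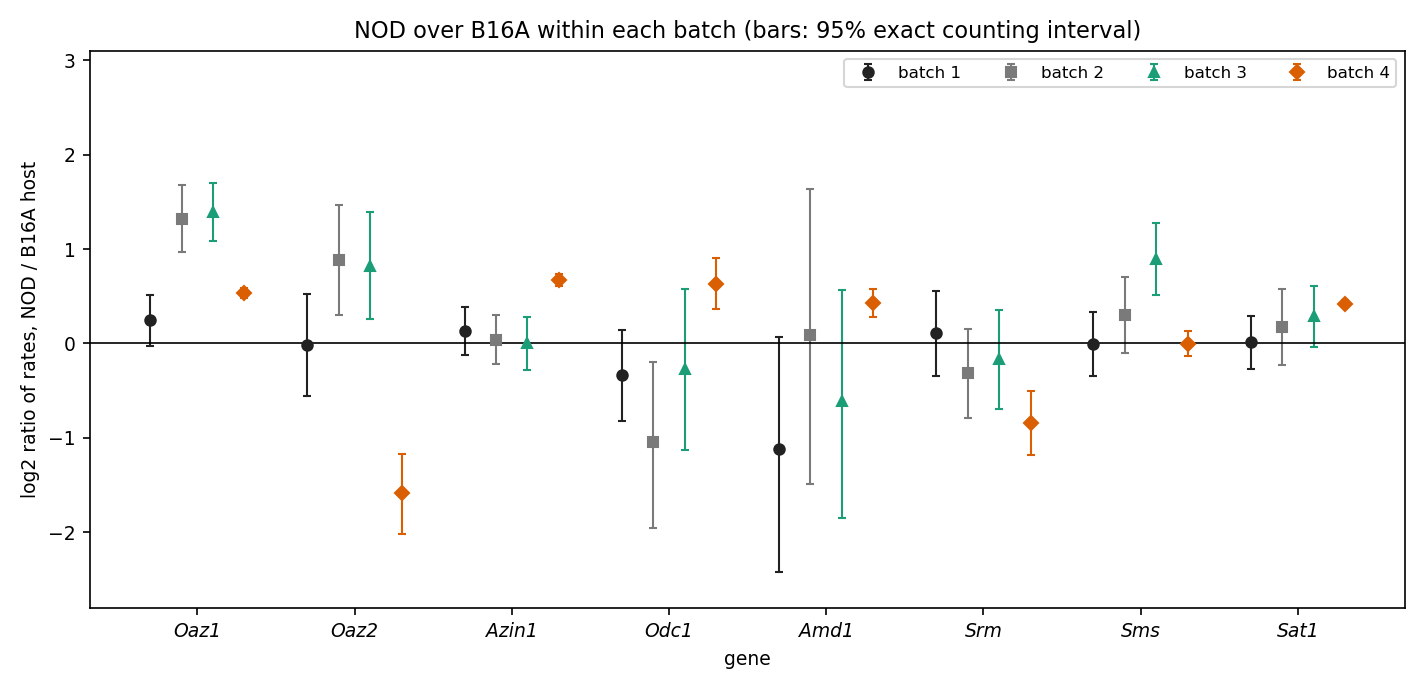
Log2 ratio of read rates, NOD over B16A host, of each gene within each batch, with 95% exact intervals for counting error (circles, squares, triangles and diamonds are batches 1 to 4). Oaz1 lies above 0 in all 4 batches and clear of 0 in batches 2, 3 and 4, while Oaz2, Odc1 and Amd1 go both ways.

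The balance of Oaz1 to Azin1 reads can be taken within a library, free of the scaling between libraries. It is a balance of RNA reads and not of the proteins, with no correction for length or for stretches shared with copies. Oaz1 gave 48.4%, 47.0%, 61.1% and 55.3% of the reads of Oaz1 and Azin1 together in the NOD libraries of batches 1 to 4. In the B16A libraries the share was 46.5%, 26.7%, 37.5% and 57.7%. In batch 2 the 95% Wilson intervals were 42.4% to 51.6% in the NOD and 22.5% to 31.4% in the B16A library, and in batch 3 they were 56.9% to 65.2% and 32.5% to 42.8%. The share was thus higher in the NOD library in batches 2 and 3, where the intervals did not overlap. The intervals treat reads as independent, and the shares include the Oaz1 reads that chose the group, so this is a description. In batch 1 the intervals overlapped, and in batch 4 the NOD share was the lower one (54.4% to 56.2% against 56.6% to 58.7%). In batch 4 both genes were higher in the NOD library, whereas in batches 2 and 3 Azin1 was near equal between hosts.

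**Figure D3:**
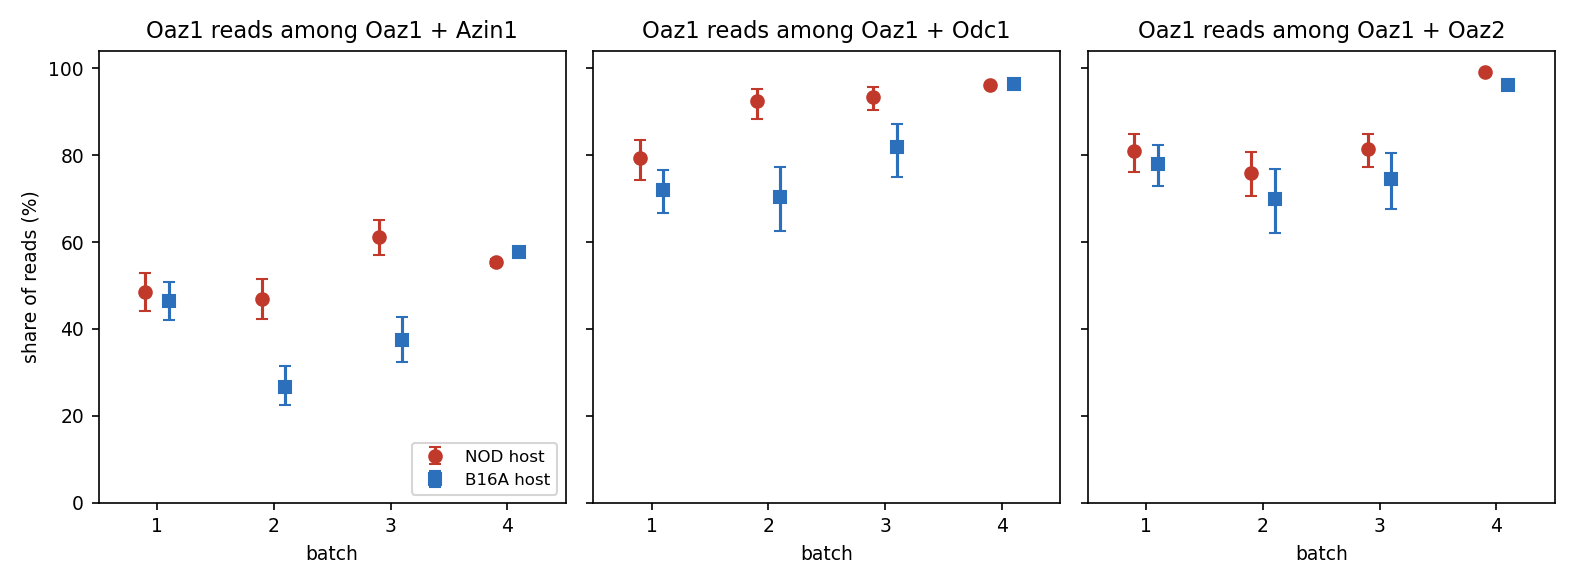
Percent of reads from Oaz1 among the reads of Oaz1 and Azin1 (left), Oaz1 and Odc1 (middle) and Oaz1 and Oaz2 (right), by batch, with 95% Wilson intervals for counting error (red circles NOD host, blue squares B16A host). The Oaz1 share against Azin1 is 47.0% and 61.1% in the NOD libraries of batches 2 and 3, against 26.7% and 37.5% in the B16A libraries, and lies close between hosts in batches 1 and 4.

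Odc1, the target of antizyme and the first enzyme of the pathway, was low in all libraries. It stood at 10.8, 3.18, 3.76 and 12.3 CPM in the NOD libraries, from 63, 17, 23 and 274 reads. In the B16A libraries it stood at 13.7, 6.55, 4.53 and 7.92 CPM, from 90, 42, 28 and 189 reads. It was lower in the NOD library in batches 1 to 3 and higher in batch 4. Of those ratios the one of batch 2 (0.485, 0.259 to 0.871) and the one of batch 4 (1.55, 1.28 to 1.88) had counting intervals without 1, and they point in opposite directions. Odc1 lies on chromosome 12 (17544794 to 17551505).

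Because Oaz1 was higher and Odc1 lower in the same NOD libraries of batches 1 to 3, the reads of Oaz1 for each read of Odc1 differed more there than either gene. That ratio was 3.83, 12.2, 14.2 and 24.6 in the NOD hosts of batches 1 to 4, against 2.56, 2.38, 4.50 and 26.3 in the B16A hosts. The share of Oaz1 among both was 92.4% (88.2% to 95.2%) in NOD and 70.4% (62.5% to 77.3%) in B16A cells of batch 2, and 93.4% (90.3% to 95.6%) and 81.8% (75.0% to 87.1%) in batch 3. In batch 1 (79.3% and 71.9%) and batch 4 (96.1% and 96.3%) the intervals overlapped. These shares too include the Oaz1 reads that chose the group.

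The remaining synthesis genes showed no common direction. Amd1, on chromosome 10 (40287458 to 40302186, minus strand), had 8 to 22 reads per library in batches 1 to 3 and 846 and 672 in batch 4. It stood at 1.55, 1.50, 1.80 and 37.9 CPM in the NOD libraries and at 3.35, 1.40, 2.75 and 28.2 CPM in the B16A ones. In batches 1 to 3 each counting interval of its ratio included 1, so no host difference was detectable at this depth. In batch 4 the ratio was 1.35 (1.22 to 1.49).

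Srm, the gene of spermidine synthase on chromosome 4 (148591503 to 148594993), stood at 14.3, 12.2, 9.81 and 5.15 CPM in the NOD libraries. In the B16A libraries it stood at 13.2, 15.1, 11.0 and 9.22 CPM. The hosts overlapped, and the batch 4 ratio of 0.559 (0.442 to 0.704) was the one whose counting interval excluded 1. Sms, the gene of spermine synthase on chromosome X (157443855 to 157492287), stood at 24.1, 20.6, 27.6 and 38.5 CPM in the NOD libraries and at 24.2, 16.7, 14.9 and 38.5 CPM in the B16A ones. It was higher in the NOD library of batch 3 (ratio 1.86, 1.43 to 2.42), and its ratios in batches 1, 2 and 4 had intervals that include 1.

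Sat1, which turns spermidine and spermine toward export, lies on chromosome X (155213132 to 155216449, minus strand). It stood at 34.4, 19.3, 29.3 and 739 CPM in the NOD libraries and at 34.1, 17.0, 23.9 and 552 CPM in the B16A ones. Its NOD to B16A ratio was 1.01, 1.13 and 1.22 in batches 1 to 3, each interval including 1, and 1.34 (1.31 to 1.37) in batch 4. With Oaz1 and Azin1 it made 3 of the 8 genes with a log2 ratio above 0 in all 4 batches, a pattern of 7.43% of all tested genes; 0 of the 8 were below 0 in all 4 (6.85%). For Azin1 that count leans on a batch 3 log2 ratio of 0.00053.

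In the fit across all genes that compared 4 NOD with 4 B16A libraries without a batch term, edgeR's quasi-likelihood test called 0 of the 8 genes at an adjusted p under 0.05, as it called 0% of the 14607 tested genes (34 of those genes had an unadjusted p under 0.05, and 0 of the 8). Of the 8 genes 6 had a positive log2 fold change and 2 a negative one, with a median of 0.25, beside a median of 0.032 over all tested genes. That count turned on batch 4: without the NOD library of batch 4 it was 1 positive and 7 negative (median -0.59), and without the B16A library of batch 4 it was 6 and 2 (median 0.93). With both left out it was 5 and 3 (median 0.11). Oaz1 had 0.64 (standard error 1.02; edgeR adjusted p = 0.9999). Those of the other 7 genes ran from -0.23 (Srm) to 0.44 (Azin1), with standard errors of 0.38 (Sms) to 1.53 (Sat1). Without the NOD library of batch 4 the Oaz1 value was -0.71, and without the B16A library of batch 4 it was 2.24, since each of these fits keeps batch 4 in 1 host.

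With the batch as a term, the paired fit of all 8 libraries put Oaz1 at 0.85 on the log2 scale (standard error 0.19; edgeR adjusted p = 0.683, from an unadjusted 0.000645). It again called 0 of the 8 genes and 0% of all, with 857 of all genes and 1 of the 8 at an unadjusted p under 0.05. DESeq2 with the same batch term called 1 of the 8, Oaz1 (0.87, standard error 0.21, adjusted p = 0.017), where 23 genes were called higher in NOD hosts, 0.157% of those fitted. DESeq2 gave an adjusted p to 3563 of the 14607 genes and to 3 of the 8 (Oaz1, Azin1 and Sat1). The other 5 members could thus not be called, and among the 3563 genes the share called higher exceeds 0.157%. Limma voom with that term called 0 of the 8 and 0.0548% of all genes as higher, with 0.75 for Oaz1 (standard error 0.20, adjusted p = 0.201).

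The value that chose the group came from batches 1 to 3 with the batch term, and is given as a description. There Oaz1 stood at 0.97 on the log2 scale (standard error 0.21; edgeR adjusted p = 0.0481), as 1 of 25 genes called higher, or 0.159% of 15716 tested (0.204% were called in either direction). That fit left 2 residual degrees of freedom per gene, so its standard errors and p-values also draw on the spread of other genes. The same libraries without the batch term gave Oaz1 0.91 (standard error 0.28; edgeR adjusted p = 0.975) and 0 genes called, with 704 at an unadjusted p under 0.05. Odc1 had -0.53 (standard error 0.37), Amd1 -0.56 (0.67), Srm -0.12 (0.27), Oaz2 0.56 (0.31), Sms 0.39 (0.22), Sat1 0.16 (0.20) and Azin1 0.061 (0.17). None of these 7 passed, with adjusted p from 0.691 (Oaz2) to 0.973 (Azin1). Oaz1 was just inside the threshold. The next members, Oaz2 and Sms (edgeR adjusted p = 0.691 and 0.699), were nearly tied and far outside it. With the batch term and batch 1, 2 or 3 left out in place of batch 4, Oaz1 had 1.04, 0.71 and 0.68 (edgeR, adjusted p = 0.153, 0.967 and 0.9995).

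**Figure D4:**
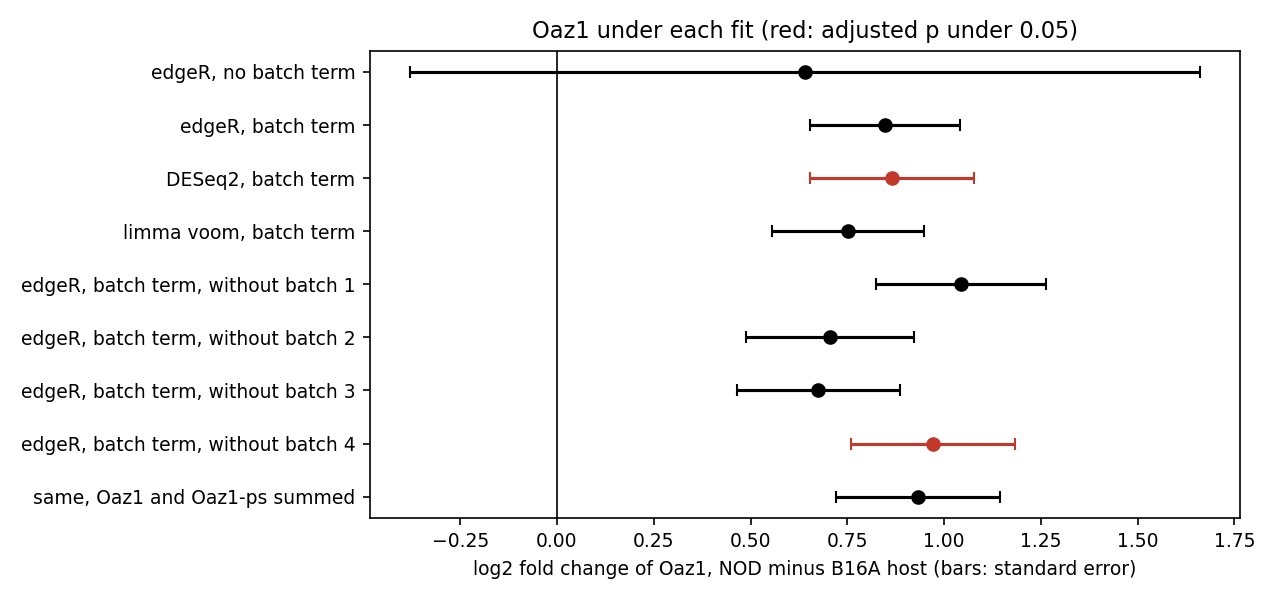
Log2 fold change of Oaz1, NOD minus B16A host, with its standard error, in 9 fits (points in red have an adjusted p under 0.05). All 9 values shown lie between 0.64 and 1.04, and 2 of them pass the threshold. Other fits are not shown, among them those with 1 library left out, which ran from -0.71 to 2.24.

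Copies of the members in the genome limit these counts. Of the 1022 stretches of 50 bases in the longest coding transcript of Oaz1, 52.1% also occur in a transcript of another gene, mainly Oaz1-ps, a processed pseudogene on chromosome 17 (17345456 to 17346140). The share was 87.6% for Amd1 (mainly its near-identical copy Amd2), 42.2% for Odc1, 28.7% for Sms, 12.0% for Oaz2, 7.28% for Sat1, 6.43% for Azin1 and 2.40% for Srm. Levels of Amd1, Oaz1 and Odc1 are thus uncertain. Oaz1-ps held 3 to 12 reads per library in batches 1 to 3 and 443 and 318 in batch 4. Its share of the reads of both was 0.91% to 1.63% in the NOD and 2.33% to 4.96% in the B16A libraries of batches 1 to 3, with overlapping intervals within each batch. When reads of Oaz1 and Oaz1-ps were summed, a setting added after the data were seen, the fit of batches 1 to 3 with the batch term gave 0.93 (standard error 0.21) and lost the call (edgeR adjusted p = 0.0636). Amd2 held 0 to 8 reads per library and Oaz2-ps 0.

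Per length of annotated exon, Oaz1 had the highest mean of the 8 over the libraries of batches 1 to 3, at 13.3 ± 5.48 CPM per kilobase (SD, n = 6 libraries). Sat1 followed at 9.49 ± 2.68, Srm at 7.88 ± 1.26, Azin1 at 6.37 ± 0.761, Sms at 3.55 ± 0.812, Oaz2 at 3.23 ± 0.819, Odc1 at 2.08 ± 1.25 and Amd1 at 0.581 ± 0.226 CPM per kilobase. Neighbours in this order overlapped in their range over the 6 libraries, except Azin1 (5.43 to 7.07) and Sms (2.48 to 4.60). Odc1 and Amd1 overlapped by little (0.934 to 4.02 and 0.396 to 0.946). RNA of Odc1, whose enzyme is the target of antizyme, thus stood lower per length than that of Oaz1 and that of Azin1. The lengths were not corrected for stretches shared with copies, whose share was 42.2% for Odc1 and 87.6% for Amd1 but 6.43% for Azin1. The order per length is uncertain for that reason. With the length of the longest transcript in place of all exons, Sat1 came first at 19.5 and Oaz1 next at 13.5. With the longest coding transcript, a length tried after the data were seen, Oaz1 came first again at 31.9 and Sat1 next at 22.7. By host, over all exons, Oaz1 stood at 17.4 ± 3.03 in NOD and 9.25 ± 3.95 in B16A cells (SD, n = 3) and Sat1 at 9.97 ± 2.78 and 9.02 ± 3.10, so in B16A hosts the levels of these genes lay within their spread.

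In batch 4 the pathway had another make-up. Sat1 led with 199 and 266 CPM per kilobase, followed by Oaz1 with 81.5 and 118 and Azin1 with 24.4 and 39.0. Relative to the mean of batches 1 to 3 of the same host, log2 CPM in batch 4 was higher by 4.77 (NOD) and 4.51 (B16A) for Sat1, by 4.40 and 3.47 for Amd1, by 2.77 and 3.21 for Oaz1 and by 2.59 and 1.97 for Azin1. Sms differed by 0.68 and 1.07 and Odc1 by 1.24 and 0.09. Srm was lower in batch 4 of both hosts, with -1.18 and -0.49, and Oaz2 differed by -1.94 in NOD and 0.13 in B16A hosts. The median of the 8 genes was 1.58, beside -0.27 over all tested genes, of which 44.9% were higher in batch 4 (6 of the 8 genes were). Sat1 lay above 99.7% of all tested genes, Amd1 above 98.9% and Oaz1 above 95.9%. Batch 4 is 1 batch that also differed in depth and in the number of genes detected, so no test was made, and batch, depth and composition cannot be told apart.

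**Figure D5:**
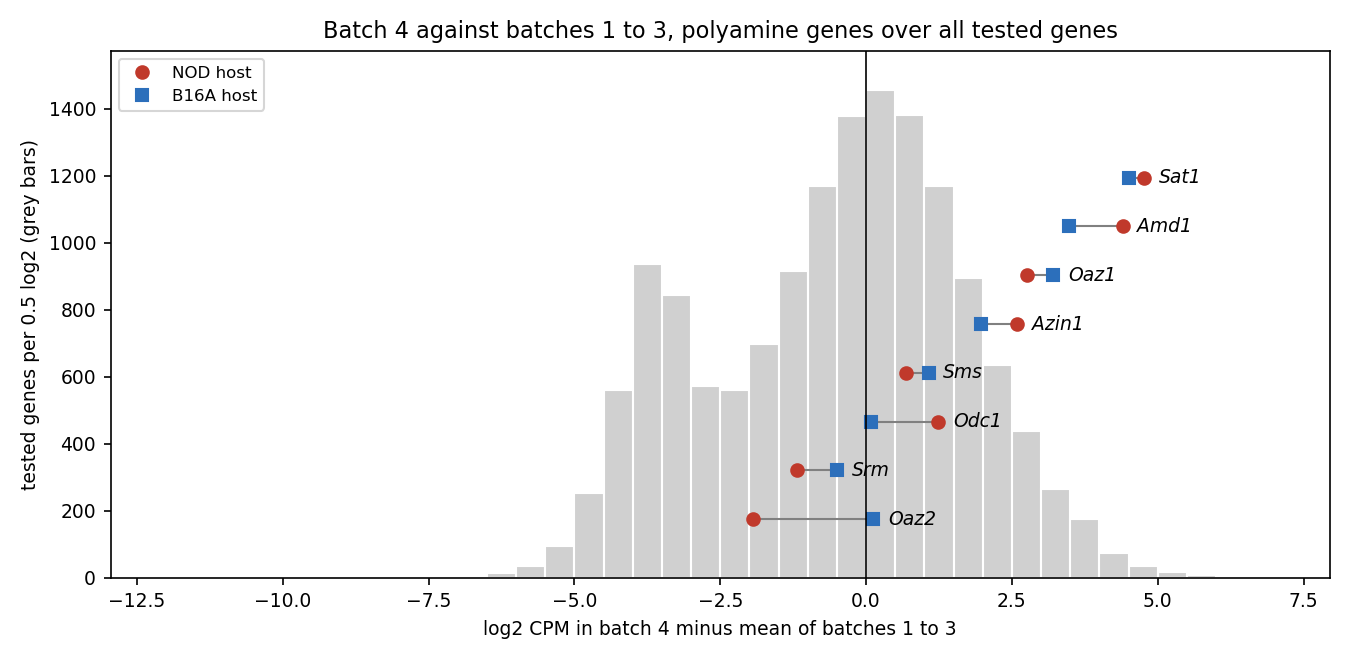
Log2 CPM in batch 4 minus the mean of batches 1 to 3, within NOD hosts (red circles) and B16A hosts (blue squares), for the 8 genes, over the same difference averaged over hosts for all 14607 tested genes (grey bars, number of genes per bin, left axis). Sat1, Amd1, Oaz1 and Azin1 lie to the right, from 1.97 to 4.77, and Srm lies below 0 in both hosts.

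A wider list of 33 genes covered the supply of ornithine and methionine, transport, breakdown, the hypusine pathway that uses spermidine, and the Myc network that drives several of these genes. Of them 26 passed the filter on low counts, and 0 were called in either direction without the batch term, with it, or (27 tested) in batches 1 to 3 with it (edgeR; 0, 2 and 2 had an unadjusted p under 0.05). The median log2 fold change of the 26 was 0.050, with 14 positive and 12 negative, beside 0.032 for all tested genes. That balance turned on batch 4 too: the batch-term fit of batches 1 to 3 had 11 positive and 16 negative (median -0.079), and without the NOD library of batch 4 alone it was 8 and 20 (median -0.28). The 2 genes with an unadjusted p under 0.05 were lower in the NOD library of each batch. Slc7a5, an amino acid transporter gene, had within-batch log2 ratios of -0.60, -0.35, -0.61 and -0.66, and Mnt, a repressor that competes with Myc, had -0.57, -0.19, -0.21 and -0.38. In batches 1 to 3 with the batch term neither passed (edgeR, adjusted p = 0.578 and 0.581).

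Of the genes that tie polyamines to translation, Eif5a, whose protein carries hypusine made from spermidine, had log2 ratios of 0.12, 0.024, 0.29 and 0.77. Dohh, the hydroxylase that completes hypusine, had -0.059, 1.09, 0.68 and -0.16. Among genes around S-adenosylmethionine, Mat2b, a regulatory subunit of its synthase, had 0.050, 0.29, 0.46 and 0.28. Mri1, of the methionine salvage pathway, had -0.45, -1.14, 0.26 and -0.044. Mat2a, the catalytic subunit gene, is listed at 0 in all 8 libraries. It is a gene that cells in general use, so the 0 may be a gap in the counting or annotation and is not read as a level.

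Smox, the gene of spermine oxidase, had log2 ratios of 0.54, 0.33, 0.25 and 0.53 on levels of 2.50 to 7.30 CPM. On the supply side, Arg2, a mitochondrial arginase gene, had -0.56, -0.22, -0.88 and -0.19, and Oat, which interconverts ornithine, had 0.28, -0.74, -0.29 and 0.54. Arg1, the other arginase gene, held 6 to 53 reads per library and did not pass the filter. Oaz3 and Azin2, the other antizyme and inhibitor genes, held 2 to 45 reads. Oaz3 had log2 ratios of 0.28, 0.82, -1.87 and -1.51, and Azin2 had 0.16, 2.43, -1.44 and 0.030. Slc18b1, a polyamine transporter gene, held 5 to 29 reads and had 0.73, -0.61, -2.27 and 0.056. Each of these genes thus went both ways over the batches, on few reads. Myc itself stood at 82.9, 73.3, 50.3 and 108 CPM in the NOD libraries and at 72.9, 90.0, 79.1 and 65.7 CPM in the B16A ones, with no common direction over batches. Of the 26 tested genes 4 were above 0 in every batch (Smox, Mat2b, Mtap and Eif5a) and 4 below (Arg2, Slc3a2, Slc7a5 and Mnt), beside 7.43% and 6.85% of all tested genes; Mtap and Slc3a2 were named after their values were seen, as was Mat2a.

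Genes whose within-batch ratios were most like those of Oaz1 were sought among 3265 other genes with a mean of at least 50 CPM, by the root mean square difference of the 4 log2 ratios. The log2 ratios of Oaz1 were 0.24, 1.31, 1.38 and 0.54. Chmp1a, of the membrane-remodelling ESCRT machinery, came first, with 0.19, 1.44, 1.13 and 0.70 (difference 0.17). Dusp2, a phosphatase of activated T cells, followed with 0.21, 1.17, 1.69 and 0.37 (difference 0.19), and Hprt, a purine salvage enzyme, with 0.23, 0.89, 1.37 and 0.39 (difference 0.22). Their likeness to Oaz1 is what chose them, and the 4 ratios come from the same 8 libraries for every gene. Over batches 1 to 3 alone Chmp1a ranked 1, Dusp2 5 and Hprt 9.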

How the data were processed

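The authors deposited 1 table of raw read counts per gene name for the 8 libraries, whole numbers that are not normalized, with 46625 gene names. Per the labels' protocols, cDNA was made by SeqPlex amplification, and reads were single and 50 bases long. The submitters' processing notes name STAR, HTSeq, DESeq2 and mm10. Their settings, the annotation, strand use and the handling of reads with several matches are not stated in the sources used here. Because strand use is unknown, genes that overlap one on the opposite strand are uncertain. They include Azin1 with Gm49077, Slc7a5 with Gm20388, Arg2 with Vti1b, Oaz3 with Tdrkh and Mrpl9, Azin2 with Gm15904, and Mtap with Gm12607. Genes with copies are uncertain too, as are Oat and Dohh, which overlap Fgfr2 and Gm48551 on the same strand. Among the members, Oaz1 overlaps the microRNA gene Mir1982 on the same strand, Azin1 the microRNA gene Mir6951 and Odc1 the snoRNA gene Gm22748.

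The main test of the counts was edgeR's (version 4.0.16, R 4.3.3; filterByExpr on host, TMM, glmQLFit with robust estimation, glmQLFTest; Benjamini-Hochberg over all tested genes, threshold 0.05), which left 14607 genes and removed 32018. DESeq2 1.42.0 and limma voom with quality weights (limma 3.58.1) were alternatives. Standard errors of edgeR come from the quasi-likelihood F statistic, and those of DESeq2 and limma voom are the ones each tool gives. A prior count of 2 was used for log2 CPM. The batch numbers pair the libraries because the labels call them batches; deviations from the host means correlated across genes within batches 1 to 4 with r = 0.625, 0.702, 0.611 and 0.906. The distance of batch 4 raises these values: with batch 4 left out of the means, r was 0.266, 0.207 and 0.081 in batches 1 to 3. Between libraries of different batches r then ran from -0.294 to 0.139. The highest of these, NOD of batch 3 with B16A of batch 1, exceeded the value within batch 3. The pairing therefore rests on the labels. Gene positions, lengths and sequences come from GENCODE vM21 (GRCm38, the assembly of mm10), where all 8 members matched; shared stretches were searched in its transcripts only.

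The 8 genes, the wider list and the tests were chosen with earlier results of these data known. Named were all 8 members, from each part of the wider list the 2 tested genes with the smallest p in batches 1 to 3 with the batch term, Myc, Eif5a and Arg1, any gene called, and the 3 genes most like Oaz1. Further marker lists (CD8 T, dendritic, natural killer, erythroid, stromal and endothelial cells) summed to 65.3 to 186, 1.84 to 28.2, 0 to 3.90, 0.21 to 4.99 and 270 to 408 CPM. The first was nearly all Cd8b1 and the last nearly all Pecam1.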

Additional observations from a re-analysis of the deposited data

Results flagged for a closer look

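In 6 of 16 sets of 4 libraries (8 genes in 2 hosts) a library lay far from the other 3 on the log2 CPM scale. The measure was Dixon's ratio past its 95% critical value, which chance passes in about 1 in 20 independent sets. The 16 sets share the same 8 libraries, and the share over all tested genes was not computed. Over all tested genes the batch 4 shift had quartiles of -2.19 and 1.03, so the count is not read as particular to these genes. All 6 were batch 4 libraries. In NOD hosts they were Oaz1 (302 CPM), Oaz2 (2.82 CPM), Azin1 (244 CPM), Amd1 (37.9 CPM) and Sat1 (739 CPM), and in B16A hosts Azin1 (153 CPM).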

How the results depend on the processing

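The count of genes called between hosts was 0 in edgeR without and with the replicate block, and moved to 27 with DESeq2 and to 9 with limma voom under the replicate block, and to 32 in edgeR with batch 4 left out and the replicate block. It stayed at 0 with other scaling factors or filters, with each library left out, with batch 1, 2 or 3 left out and the block, and with batch 4 left out and no batch term. Under the replicate block Oaz1 changed from 0.64 to 0.85; the block with all 8 libraries changed no edgeR call, and Oaz1 was called in DESeq2 with it. Values that turned sign, none called: Amd1 stood at -0.19 with the replicate block in edgeR, -0.21 in DESeq2 and -0.11 in limma voom with it, -0.67 in limma voom without it, -0.62 with batch 4 left out and no batch term, and at -0.56, -0.21 and -0.076 with the block and batch 4, 2 or 3 left out. Oaz2 stood at -0.28 and -0.25 with the block and batch 2 or 3 left out, and Odc1 at 0.045 with batch 2 left out. With each library left out in turn the fold changes ran from -0.71 to 2.24 (Oaz1), -0.78 to 1.27 (Azin1), -2.53 to 2.16 (Amd1), -2.57 to 3.09 (Sat1), -0.48 to 0.25 (Odc1) and -0.0032 to 0.60 (Sms). Those for Oaz2 (0.03 to 0.49) and Srm (-0.44 to -0.02) kept their sign. At 8 to 22 reads, as for Amd1 in batches 1 to 3, counting error limits what can be seen.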
